A study of Mus musculus with 5 samples.

Results

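The genes described here are 10 that handle zinc in the mouse beta cell, of 23951 genes in the table, chosen by name: the metallothionein genes Mt1 and Mt2, their regulator Mtf1, the exporter genes Slc30a1, Slc30a5, Slc30a7 and Slc30a8, and the importer genes Slc39a6, Slc39a7 and Slc39a14. All 10 are listed and all 10 had been tested by the authors. Total RNA was sequenced from pancreatic beta cells of tetracycline-treated transgenic mice, with 3 samples in the p16 group (Ins-rtTA/tet-GFP/tet-p16ink4a mice, cells expressing p16INK4a, a cell cycle inhibitor, together with green fluorescent protein) and 2 samples in the GFP group (Ins-rtTA/tet-GFP mice, fluorescent protein alone). Both groups carried the insulin-driven reverse transactivator and the fluorescent reporter, and both were induced for 10 days before islets were dissociated and the fluorescent cells sorted. The transactivator restricts expression to cells in which the insulin promoter is active, and the sources used here give neither age nor strain. Each gene has 1 FPKM value per group, the authors' own summary of its samples, so neither depth nor spread per sample is known and no SD can be given.

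Beta cells hold a large pool of zinc inside their insulin granules, where zinc ions help insulin pack as hexamers. Transporters of the SLC30 family (ZnT proteins) move zinc out of the cytosol, either across the plasma membrane or into organelles, and those of the SLC39 family (ZIP proteins) move it into the cytosol. Metallothioneins are small cysteine-rich proteins that bind zinc and copper in the cytosol. The zinc-sensing factor MTF-1 binds metal response elements and switches on Mt1, Mt2 and Slc30a1 when free zinc rises.

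Because that response is read out by these genes, promoter sequences of the MTF-1 targets are shown with the metal response element core in capitals. The core searched was TGCACNC or TGCGCNC, on both strands, and overlapping matches counted separately. The RefSeq table (build GRCm38.p6, plus strand for the 3 genes printed) holds a window of 250 bases before to 50 after the annotated start for 7 of the 10 genes, and none matched for Slc30a8, Slc39a6 and Slc39a14. Each line below stops 30 bases after the start, with Mt1 at chr8:94178839-94179118, Mt2 at chr8:94172368-94172647 and Slc30a1 at chr1:191906531-191906810.
Mt1: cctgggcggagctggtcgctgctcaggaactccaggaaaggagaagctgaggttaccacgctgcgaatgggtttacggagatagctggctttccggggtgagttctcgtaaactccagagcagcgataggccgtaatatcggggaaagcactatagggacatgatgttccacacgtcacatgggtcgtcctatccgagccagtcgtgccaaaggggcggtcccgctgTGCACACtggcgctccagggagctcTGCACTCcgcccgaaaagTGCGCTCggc
Mt2: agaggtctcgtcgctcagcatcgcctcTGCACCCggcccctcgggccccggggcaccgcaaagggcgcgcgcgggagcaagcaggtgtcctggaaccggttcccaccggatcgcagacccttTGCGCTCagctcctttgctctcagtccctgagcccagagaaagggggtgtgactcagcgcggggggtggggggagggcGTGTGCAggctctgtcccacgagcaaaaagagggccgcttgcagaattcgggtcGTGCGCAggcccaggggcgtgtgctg
Slc30a1: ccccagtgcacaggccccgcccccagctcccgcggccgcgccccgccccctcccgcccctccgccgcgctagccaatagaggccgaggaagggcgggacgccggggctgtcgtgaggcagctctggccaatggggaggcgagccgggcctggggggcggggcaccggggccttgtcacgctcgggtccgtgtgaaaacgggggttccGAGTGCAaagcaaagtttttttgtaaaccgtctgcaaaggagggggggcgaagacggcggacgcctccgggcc

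The Mt1 window held 3 matches and the Mt2 window 4. The Slc30a1 window held 2, of which the one at position 31 after the start lies past the printed stretch. The Slc30a5 window held 1 match, and none was found in those of Slc30a7, Slc39a7 and Mtf1. Of 32851 promoter windows in the table, 25.7% held at least 1 match, 7.11% at least 2, 1.97% at least 3 and 0.517% at least 4. A match describes the letters only and is no evidence of binding. Only the window around the annotated start was searched, so matches beyond it are not counted. Whether these cells use that start was not tested.

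**Figure D1:**
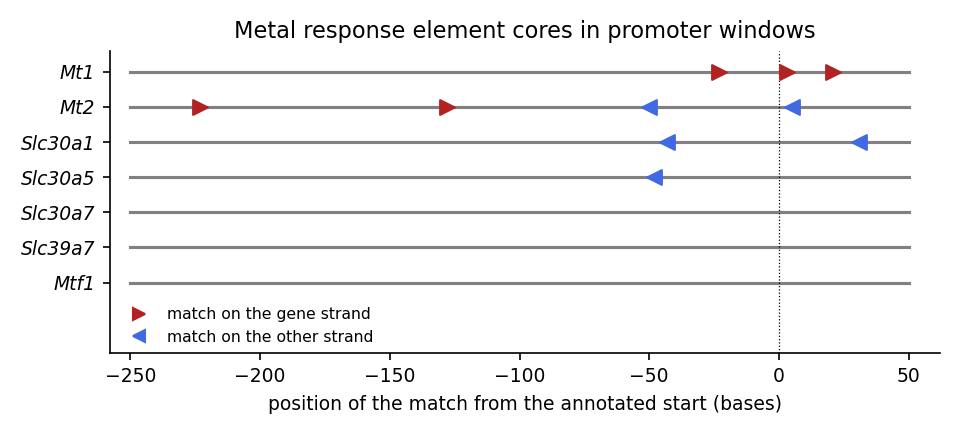
Positions of the metal response element core in the promoter windows of the 7 matched genes, with the annotated start at 0 on the x axis in bases; triangles point right for the gene's own strand and left for the other. The 3 matches in Mt1 begin between positions -23 and 21, while the 4 in Mt2 begin between -223 and 5, and the lines of Slc30a7, Slc39a7 and Mtf1 carry none.

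None of the 10 genes differed between the p16 and GFP groups at a q below 0.05 in the authors' deposited table, which has the layout of Cuffdiff output. The background in that comparison was 5.42% of 13264 tested genes, made up of 4.32% called higher and 1.1% called lower in p16 cells. None of the 10 passed at a q below 0.1 or below 0.01 either, where the background was 7.73% and 2.78%. At an unadjusted p below 0.05, 1 of the 10 passed in the authors' deposited table, Slc30a8 with the lower value in p16 cells, beside 17.2% of tested genes, or 7.01% when only lower values are counted. For each of the other 9 genes the values of the 2 groups lay within 1.5-fold, as they did for 75.8% of all tested genes. The median log2 ratio of FPKM over the 10 was -0.06, with 4 genes higher and 6 lower by value in p16 cells, against a median of -0.02 over all tested genes.

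**Figure D2:**
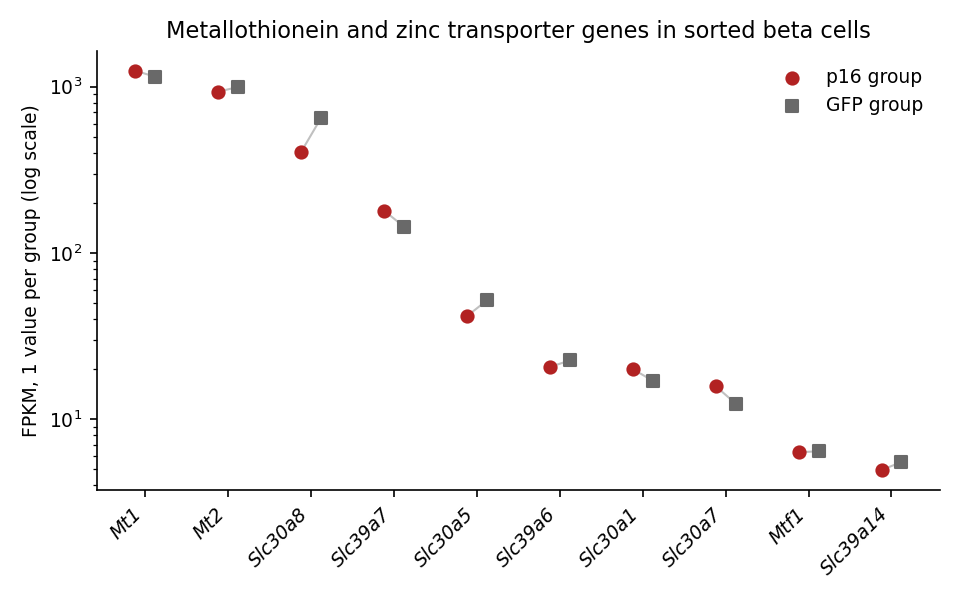
FPKM of each of the 10 genes on a log axis, with the value of the p16 group at the left of each pair and that of the GFP group at the right, 1 value per group and no error bars. The genes follow the same order in both groups, and the widest gap within a pair is that of Slc30a8, at 405.4 FPKM in p16 cells and 648.1 FPKM in GFP cells.

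The levels spanned more than 2 orders of magnitude and followed the same order in both groups. Mt1 was highest, followed by Mt2, Slc30a8, Slc39a7, Slc30a5, Slc39a6, Slc30a1, Slc30a7, Mtf1 and Slc39a14. Mt1 exceeded Slc39a14 by 252.4-fold in FPKM in p16 cells and by 207.8-fold in GFP cells. Slc39a6 and Slc30a1, neighbours in that order, stood at 20.6 and 19.998 FPKM in p16 cells and at 22.5 and 17.03 FPKM in GFP cells. Without values per sample, whether neighbours differ beyond their spread cannot be said.

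The metallothioneins were among the most abundant transcripts of these cells. Mt1 (chromosome 8, 96702989 to 96704227 in the mm9 build) had 1248 FPKM in p16 cells and 1147 FPKM in GFP cells. By FPKM it ranked 18 among tested genes in p16 cells and 25 in GFP cells. The p16 value was 8.73% above the GFP value, a log2 ratio of 0.12 and not a call (q = 0.895 in the authors' deposited table).

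Mt2, which lies beside Mt1 at 96696518 to 96697467, had 934.0 FPKM in p16 cells and 995.1 FPKM in GFP cells. Its log2 ratio was -0.09 (q = 0.933 in the authors' deposited table), with ranks of 32 in p16 cells and 34 in GFP cells. Neither gene of the pair was called, and their ratios pointed opposite ways. That of Mt2 changed sign, to 0.08, once log2(FPKM + 1) values were quantile normalized. Their summed level was 2182 FPKM in p16 cells and 2142 FPKM in GFP cells. Mt1 stood at 1.34 times Mt2 in p16 cells and at 1.15 times Mt2 in GFP cells. The pair are related genes, and the longest identical stretch between their longest GENCODE transcripts was 20 bases. Whether reads of one were assigned to the other was not tested.

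The other metallothionein genes were low in these cells. Mt3, known chiefly from the brain, had 4.76 FPKM in p16 cells and 2.58 FPKM in GFP cells and was not called (q = 0.429 in the authors' deposited table). Mt4, known from stratified epithelia, is listed at 0 in both groups. Mtf1, which encodes MTF-1, was close to equal, at 6.32 FPKM in p16 cells and 6.41 FPKM in GFP cells (log2 ratio -0.02, q = 0.987 in the authors' deposited table). That ratio turned to 0.02 with the median of all genes set to 0. Mtf1 shares its locus entry (chromosome 4, 124479793 to 124527974) with 1110065P20Rik, listed at 46.8 FPKM in p16 cells and 41.7 FPKM in GFP cells, which leaves the share of reads given to each uncertain.

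Slc30a8, which encodes the ZnT8 transporter that loads zinc into insulin granules, showed the widest difference of the 10. It had 405.4 FPKM in p16 cells and 648.1 FPKM in GFP cells, and ranked 125 in p16 cells and 62 in GFP cells. The value was 1.60-fold lower in p16 cells, a log2 ratio of -0.68, which did not pass (p = 0.01425, q = 0.146 in the authors' deposited table). Of all tested genes, 9.78% had a p at least this small in the authors' deposited table, and 19.2% had a log2 ratio at least this far from 0. The locus is on chromosome 15, 52127108 to 52167288.

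At this abundance the authors' test called only wider ratios. Among the 214 tested genes within 2-fold of the mean FPKM of Slc30a8, 3 were called higher and 7 lower in p16 cells in the authors' deposited table. The smallest of these differences was 1.95-fold among those higher and 1.96-fold among those lower. A 1.60-fold difference thus fell short of every call made among genes of like abundance. For Mt1 the same window held 56 tested genes, of which 1 was called higher, at 2.15-fold, and 1 lower, at 3.08-fold. Over all abundances the smallest fold called was 1.76.

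**Figure D3:**
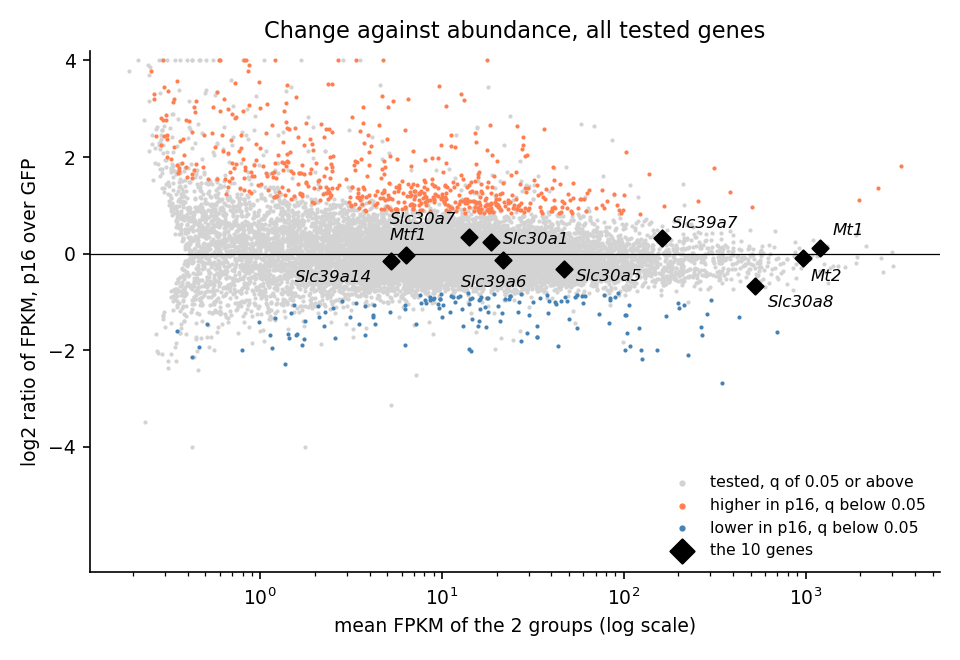
Log2 ratio of FPKM, p16 over GFP, against the mean FPKM of both groups on a log axis for all tested genes; grey points were not called, orange points were higher and blue points lower in p16 cells at a q below 0.05 in the authors' deposited table, and black diamonds are the 10 genes. The 31 points with a log2 ratio beyond 4 in size are drawn at that limit, and 90 genes with 1 group at 0 are left out; all 10 diamonds lie in the grey band, Slc30a8 lowest at -0.68.

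Other beta-cell genes and markers of neighbouring islet cells bear on how Slc30a8 is read, since the sorted cells were measured in bulk. There, fewer cells of a type and less RNA per cell cannot be told apart. Ins1, Ins2 and Iapp, beta-cell hormone genes, have no estimate in either group, since their status marks too many fragments. These hormone genes therefore could not be set beside Slc30a8. Among the tested beta-cell markers Slc2a2, the glucose transporter gene, fell to 205.2 FPKM in p16 cells, against 401.7 FPKM in GFP cells (q = 0.0242 in the authors' deposited table). Ucn3 and G6pc2 had the lower value in p16 cells, at 226.8 and 2327 FPKM, against 366.4 and 3012 FPKM in GFP cells. Mafa, Pdx1 and Nkx6-1 had the higher value in p16 cells, at 166.0, 119.6 and 155.2 FPKM. In GFP cells they had 109.3, 67.6 and 136.3 FPKM. None of these higher or lower values was a call, the smallest q being 0.0996 for Pdx1 in the authors' deposited table.

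Over all tested genes, 4.32% were called higher and 1.1% lower in p16 cells in the authors' deposited table. Of 6 delta and PP cell markers, 4 were called higher in p16 cells in that table. The list summed to 3999 FPKM in p16 cells and 1866 FPKM in GFP cells, with none at 0. Of 7 tested alpha cell markers, 1 was called higher in the authors' deposited table, and that list summed to 2822 FPKM in p16 cells and 2189 FPKM in GFP cells. Of 5 tested acinar markers none was called in the authors' deposited table, the sum over the list of 8 was 11.1 FPKM in p16 cells and 12.2 FPKM in GFP cells, and Prss1, Amy2a5 and Ptf1a are listed at 0 in both groups. The authors' deposited table calls 2 of 5 tested duct markers higher and 1 lower, with sums over the list of 516.5 FPKM in p16 cells and 161.0 FPKM in GFP cells. Cldn4, a tight junction gene, carried most of these sums, at 486.5 FPKM in p16 cells and 143.3 FPKM in GFP cells, and without it the list summed to 30.04 FPKM in p16 cells and 17.6 FPKM in GFP cells. Krt19, a duct keratin gene, fell to 1.79 FPKM in p16 cells, against 5.75 FPKM in GFP cells (q = 0.0105 in the authors' deposited table). Both tested stellate cell and fibroblast markers were called higher in the authors' deposited table, though the list of 6 summed to only 4.56 FPKM in p16 cells and 0.506 FPKM in GFP cells. The 5 endothelial markers were not tested and summed to 0.552 FPKM in p16 cells and 0.567 FPKM in GFP cells. Of 2 tested leukocyte markers 1 was called higher in the authors' deposited table. It was the macrophage gene Cd68, at 1.95 FPKM in p16 cells and 0.229 FPKM in GFP cells (q = 0.0498). The 5 listed markers summed to 7.51 FPKM in p16 cells and 7.72 FPKM in GFP cells. Cd79a carried most of these sums, at 5.50 FPKM in p16 cells and 7.41 FPKM in GFP cells, and was not called (q = 0.569 in the authors' deposited table). Cd3e is listed at 0 in both groups. The 2 erythroid markers in the table were not tested and summed to 0.218 FPKM in p16 cells and 0.0986 FPKM in GFP cells. The part of these cell types in the value of Slc30a8 was not tested. Cdkn2a, the gene of the induced inhibitor, stood at 34.6 FPKM in p16 cells and 0.657 FPKM in GFP cells (q = 0.00245 in the authors' deposited table), the direction the labels give.

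The remaining exporter genes were an order of magnitude or more below Slc30a8 in GFP cells. Slc30a5 encodes ZnT5, which supplies zinc to enzymes of the early secretory pathway. It had 41.7 FPKM in p16 cells and 51.8 FPKM in GFP cells (log2 ratio -0.31, q = 0.598 in the authors' deposited table). Slc30a6, whose product pairs with ZnT5, had 9.96 FPKM in p16 cells and 10.6 FPKM in GFP cells (q = 0.933 in the authors' deposited table).

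Slc30a7 encodes ZnT7 of the Golgi apparatus. It had 15.8 FPKM in p16 cells and 12.4 FPKM in GFP cells, a log2 ratio of 0.35 (q = 0.541 in the authors' deposited table). Slc30a1 encodes ZnT1, the exporter at the plasma membrane and itself an MTF-1 target. It had 19.998 FPKM in p16 cells and 17.03 FPKM in GFP cells, a log2 ratio of 0.23 (q = 0.750 in the authors' deposited table). Slc30a1 shares its locus entry (chromosome 1, 193717951 to 193737126) with 1700034H15Rik, listed at 0.403 FPKM in p16 cells and 0.216 FPKM in GFP cells. Thus 2 of the 4 exporter genes had the higher value and 2 the lower in p16 cells, and none was called.

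Over the whole SLC30 family of 10 genes, 7 were tested and none was called in the authors' deposited table; 1 had an unadjusted p below 0.05, Slc30a8. Slc30a9, which encodes a mitochondrial member, had 34.6 FPKM in p16 cells and 46.9 FPKM in GFP cells (q = 0.399 in the authors' deposited table). Slc30a4, a vesicular exporter gene, had 17.3 FPKM in p16 cells and 14.9 FPKM in GFP cells (q = 0.772 in the authors' deposited table). Slc30a2, Slc30a3 and Slc30a10 were not tested and had at most 0.0394 FPKM in either group. Slc30a8 alone made up 74.4% of the family's summed FPKM in p16 cells and 80.8% in GFP cells. Without Slc30a8 the family summed to 139.3 FPKM in p16 cells and 153.6 FPKM in GFP cells.

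Among the importer genes, Slc39a7 was the most abundant. It encodes ZIP7, which releases zinc from the endoplasmic reticulum to the cytosol. It had 179.6 FPKM in p16 cells and 143.9 FPKM in GFP cells, a log2 ratio of 0.32 and not a call (q = 0.596 in the authors' deposited table). Its locus is on chromosome 17, 34165211 to 34168635. At that abundance 771 tested genes lay within 2-fold, and the smallest folds called there were 1.78 among those higher and 1.77 among those lower in p16 cells in the authors' deposited table, wider than the 1.25-fold of Slc39a7. Slc30a8 stood at 2.26 times Slc39a7 in FPKM in p16 cells and at 4.50 times in GFP cells; the difference between these ratios was not tested.

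The other importer genes of the set lay closer to equality. Slc39a6, which encodes ZIP6 of the plasma membrane, had 20.6 FPKM in p16 cells and 22.5 FPKM in GFP cells (log2 ratio -0.13, q = 0.880 in the authors' deposited table). Slc39a14 encodes ZIP14, which carries zinc, iron and manganese and is induced in the liver during inflammation. It had 4.94 FPKM in p16 cells and 5.52 FPKM in GFP cells (log2 ratio -0.16, q = 0.860 in the authors' deposited table). Slc39a14 was the least abundant of the 10 genes in both groups.

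In the wider SLC39 family of 14 genes, 10 were tested, 1 was called higher and none lower in p16 cells in the authors' deposited table, or 10% against the background of 5.42%. The gene called was Slc39a11, which encodes ZIP11. It rose to 10.9 FPKM in p16 cells, against 5.43 FPKM in GFP cells, a 2.01-fold difference (q = 0.0223 in the authors' deposited table). It made up 3.37% of the family's summed FPKM in p16 cells and 1.97% in GFP cells. Slc39a8, which encodes ZIP8 and is named here after its values were seen, had 0.522 FPKM in p16 cells and 1.27 FPKM in GFP cells and missed the threshold (q = 0.0656 in the authors' deposited table). The abundant members Slc39a9 and Slc39a1 had 38.4 and 38.3 FPKM in p16 cells and 39.1 and 28.6 FPKM in GFP cells, and neither was called (q = 0.977 and 0.433 in the authors' deposited table).

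**Figure D4:**
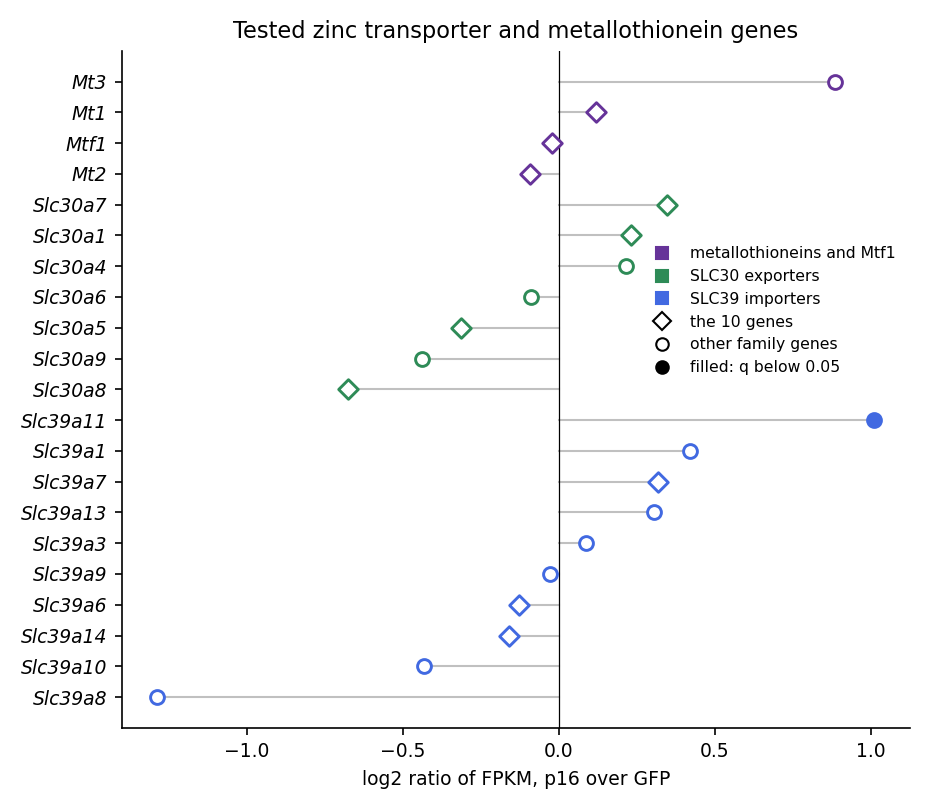
Log2 ratio of FPKM, p16 over GFP, for every tested metallothionein, SLC30 and SLC39 gene and Mtf1; diamonds are the 10 genes, circles other members of the families, and filled symbols have a q below 0.05 in the authors' deposited table. Slc39a11, at a log2 ratio of 1.01, is the one filled symbol, and Slc39a8 lies farthest below 0 at -1.29.

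Further genes of zinc biology were taken as lists. With the other family members they came to 37 genes, of which 22 were tested, 2 were called higher and none lower in p16 cells in the authors' deposited table, or 9.09% against 5.42% of all tested genes. The second called gene was Enpp1, a zinc-dependent ectoenzyme that makes pyrophosphate, at 0.604 FPKM in p16 cells and 0.12 FPKM in GFP cells (q = 0.0293 in the authors' deposited table). In the same list of zinc enzymes loaded in the secretory pathway, Smpd1, the acid sphingomyelinase gene, had 40.02 FPKM in p16 cells and 39.4 FPKM in GFP cells (q = 0.982 in the authors' deposited table). Enpp3, a related ectoenzyme gene, was not tested, at 0.325 FPKM in p16 cells and 0.344 FPKM in GFP cells.

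Of 6 tested zinc enzymes of peptide hormone handling, none was called in the authors' deposited table and none had an unadjusted p below 0.05. Cpe, the carboxypeptidase that trims proinsulin intermediates, had 3034 FPKM in p16 cells and 2959 FPKM in GFP cells (q = 0.975 in the authors' deposited table). Pam, which amidates peptide hormones, had 275.7 FPKM in p16 cells and 216.6 FPKM in GFP cells (q = 0.583 in the authors' deposited table). Of 3 tested zinc-permeable channel genes none was called in the authors' deposited table. Mcoln1, of the lysosome, had 15.3 FPKM in p16 cells and 13.2 FPKM in GFP cells, and Trpm7, of the plasma membrane, 9.42 FPKM in p16 cells and 7.53 FPKM in GFP cells (q = 0.797 and 0.603 in the authors' deposited table).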

How the data were processed

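RNA-seq covered 3 p16 and 2 GFP samples. The submitters' processing notes name the mm9 build and the tools TopHat2, Cuffnorm and Cuffdiff; tool versions, gene annotation, strand and scaling: not given in the sources used here. A single table deposited by the authors holds 1 FPKM value per group and gene, scaled to transcript length and library size, with a p-value and a q-value. FPKM is no count, so no count model was run, and depth is unknown. A p-value sets the difference between the groups against the spread between these samples as the authors modelled it. Of 23951 genes 13264 were tested by the authors; q-values equalled Benjamini-Hochberg values over them within 5.23e-07.

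Log2 ratios were recomputed from FPKM without a pseudocount. The table counts starts from 0, since 272 of 887 microRNA genes had exactly the RefSeq hairpin length and 1 did when starts were counted from 1; 1 was added. The members and gene lists were chosen with earlier results of these data known. All 10 members were named, with every called gene of each list, or its 2 most abundant where fewer than 2 were called; 1 result on a beta-cell marker is not reported here. Alternatives covered thresholds, filters on mean FPKM of 1 and 5, pseudocounts of 1 and 5 FPKM, scaling, and a spline trend with GC content and length of GENCODE M21 transcripts, matched for 95.1% of tested genes. Adjustment and trend removal were tested on simulated data. Python 3.11.15, numpy 2.4.6, pandas 2.3.3, scipy 1.17.1, patsy 1.0.2 and matplotlib 3.10.9 were used.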

Additional observations from a re-analysis of the deposited data

How the results depend on the processing

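No paired analysis was possible because the table holds 1 value per group, and for the same reason no sample could be left out. The count of 0 genes called among the 10 was kept at q thresholds of 0.01 and 0.1. It was also kept with p-values adjusted over the genes whose mean FPKM reached 1 or 5, and with the GC content and length trend removed. Over these adjustments, trend removal aside, the q of Slc30a8 ranged from 0.146 to 0.171. The trend was removed from the normal quantile of each p-value, signed by direction. That of Slc30a8 shrank from -2.45 to -1.61, so its difference was weaker under this setting. Over all genes, 719 were called in the authors' deposited table, 369 at a q below 0.01, 404 with adjustment over genes of at least 5 FPKM and 455 with the trend removed. Of the other zinc genes 2 were called, 0 at a q below 0.01, and 1, Slc39a11, with either filter, since Enpp1 has a mean FPKM below 1. The median log2 ratio of the 10 genes, -0.056, was -0.055 with a pseudocount of 1 FPKM, -0.047 with one of 5 FPKM, -0.018 with the median of all genes set to 0, -0.042 with upper quartiles set equal and 0.0068 after quantile normalization of log2(FPKM + 1) values. Of 50 log2 ratios of single genes under these settings, 48 kept their direction; that of Mt2 was 0.076 with quantile normalization and that of Mtf1 was 0.017 with the median of all genes set to 0. The cause of these moves was not tested. Depth per sample is unknown, so whether deeper libraries would call Slc30a8 cannot be said.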

Other observations

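Genes of other metals and of the signals that induce metallothioneins were listed as well. These lists, like those above, were chosen with earlier results of these data known. Their shares called, set beside that of all tested genes, describe the lists and test nothing. The authors' deposited table calls 1 of 8 tested iron genes higher and 1 lower in p16 cells. That was 25% of them, against 5.42% of all tested genes. Slc11a2, the importer of divalent metals DMT1, rose to 23.01 FPKM in p16 cells, against 11.7 FPKM in GFP cells (q = 0.0152 in the authors' deposited table), and Tfrc, the transferrin receptor gene, fell to 16.7 FPKM in p16 cells, against 30.6 FPKM in GFP cells (q = 0.0267 in the authors' deposited table). Of 9 tested copper genes none was called in the authors' deposited table and none had an unadjusted p below 0.05. Cox17, a copper chaperone gene of the mitochondrion, had 194.7 FPKM in p16 cells and 231.7 FPKM in GFP cells, and Atox1, a cytosolic copper chaperone gene, had 66.6 FPKM in p16 cells and 53.1 FPKM in GFP cells (q = 0.724 and 0.647 in the authors' deposited table).

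Among 8 tested glucocorticoid response genes the authors' deposited table calls 1 lower and none higher in p16 cells. That was 12.5% of them, against 5.42% of all tested genes. The gene called was Errfi1, an inhibitor of EGF receptor signalling, at 28.6 FPKM in p16 cells and 82.6 FPKM in GFP cells (q = 0.00245 in the authors' deposited table). Klf9, a Kruppel-like transcription factor gene, had 40.7 FPKM in p16 cells and 61.3 FPKM in GFP cells and was not called (q = 0.207 in the authors' deposited table). Among 6 tested genes of gp130 and STAT3 signalling it calls 2 higher and 1 lower, or 50% against 5.42% of all tested genes. Stat3 rose to 123.0 FPKM in p16 cells, against 65.5 FPKM in GFP cells, and Bcl3 to 34.9 FPKM in p16 cells, against 18.7 FPKM in GFP cells (q = 0.0313 and 0.0438 in the authors' deposited table). Socs3, the feedback inhibitor, fell to 28.4 FPKM in p16 cells, against 72.2 FPKM in GFP cells (q = 0.00245 in the authors' deposited table).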
